A study of Mus musculus with 16 samples.

Results

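The 9 genes described here encode proteins that promote or inhibit mineral deposition in arteries: Enpp1, Ank, Alpl, Phospho1, Slc20a1, Slc20a2, Mgp, Spp1 and Runx2. They were taken by gene symbol from the deposited expression table, where each matched 1 of 54532 genes, and all 9 passed the filter that left 15007 genes for testing. RNA was sequenced from aortas of male Apoe-/- mice of strain C57BL/6j, which were 8 to 12 weeks old when treatment began. All mice therefore lacked apolipoprotein E, which clears lipoproteins from blood, in the control group as well as in the treated group. The control group of 8 libraries came from mice infused with saline (0.9% sodium chloride), and the other group of 8 from mice infused with angiotensin II (Ang II), a vasoconstrictor peptide, at 1000 ng per kg per min. Both were delivered for 7 days by Alzet osmotic pumps, and the aortas were taken without the adventitia, the outer layer of the wall. The labels do not state whether each library is a separate mouse. The p-values set group differences against the spread between libraries, taken as independent units that may not be separate mice.

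Mineral forms in the artery wall when phosphate and calcium exceed what local inhibitors hold in solution. Pyrophosphate is the main small-molecule inhibitor: it is made outside the cell by the ENPP1 enzyme from ATP released with the help of ANK, and it is destroyed by the alkaline phosphatase encoded by Alpl, which frees phosphate. Secreted proteins such as matrix Gla protein (Mgp) and osteopontin (Spp1) restrain crystal growth, while smooth muscle cells that take up phosphate and switch on the bone transcription factor RUNX2 acquire features of bone-forming cells.

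Libraries held 14606864 to 19988730 reads, and levels are given as FPKM, fragments scaled to transcript length and library size. The smooth muscle gene Acta2 stood at 3833 to 9220 FPKM in every library, while adventitial fibroblast markers summed to 58.4 to 186 FPKM and adipocyte markers to 59.6 to 411 FPKM. Saline 8, Saline 7 and Saline 2 were set apart by principal component 1, with 46.9% of the variance, at -109, -67.6 and -47.5 against -9.47 to 37.1 for the other 13 libraries. Over all tested genes the median log2 fold change was -0.12, and -0.01 once libraries were scaled by their median ratio. In bulk tissue, fewer cells of a type and less RNA per cell cannot be told apart.

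With Ang II, 4 of the 9 genes rose, 2 fell and 3 did not pass the test (limma on log2(FPKM + 1), Benjamini-Hochberg adjusted over 15007 genes, threshold 0.05). Those that rose were both genes of pyrophosphate supply, Enpp1 and Ank, together with Spp1 and Runx2. Those that fell were the pyrophosphate-degrading phosphatase Alpl and the phosphate transporter Slc20a2. Mgp, Slc20a1 and Phospho1 did not pass. Runx2 was tested only through its Ang II libraries, since its saline mean of 0.496 FPKM was under the filter of 0.5 FPKM. Of all tested genes 9.54% were called higher, 24.9% lower and 34.5% in either direction. This split depended on scaling, with 1431 genes higher and 3741 lower as deposited, 2235 and 2113 under median ratio scaling, and 2270 and 2374 under quantile normalization. The counts of 4 and 2 among the 9 genes were the same under both scalings. The median log2 fold change of the 9 genes was 0.48. Without Saline 7 and Saline 8, 3 genes rose and 2 fell, since Spp1 no longer passed, and without Saline 2 as well, 4 rose and 2 fell.

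**Figure D1:**
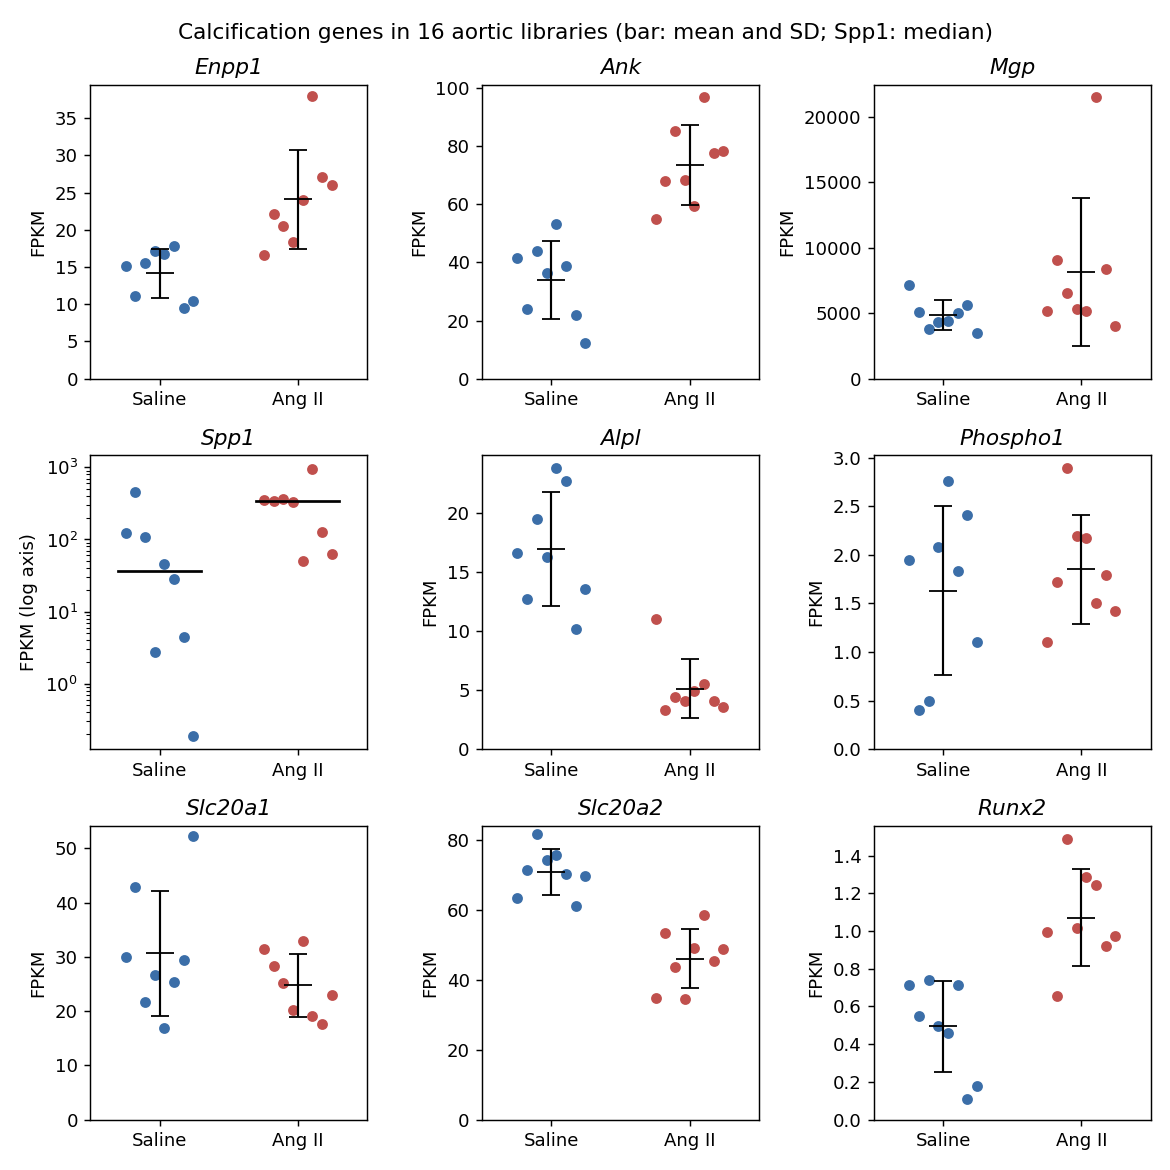
FPKM of each of the 9 genes (linear axes from 0, and a logarithmic axis for Spp1) in the 8 saline and 8 Ang II libraries, 1 point per library. Bars give the mean and SD, and for Spp1 a line gives the median. The Ang II libraries sit above every saline library for Ank and below every one for Slc20a2, while Spp1 spans 0.19 to 455 FPKM among the saline libraries. How many of all tested genes separate in this way was not counted.

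The first pair of genes supplies extracellular pyrophosphate. Ank encodes a multipass membrane protein needed for the release of ATP and pyrophosphate, and lies on chromosome 15 from 27466677 to 27594909 (plus strand, GRCm38). In the saline libraries Ank ran from 12.4 through a median of 37.5 to 53.4 FPKM, and in the Ang II libraries from 54.8 through 73.1 to 96.9 FPKM. The groups did not overlap, since all 8 Ang II libraries exceeded every saline library, and the lowest saline value was that of Saline 8. Here and for the genes below, such separation is only a description. The share of all tested genes that separate in this way was not counted. The mean rose from 34.0 ± 13.5 to 73.7 ± 13.8 FPKM (SD, n = 8 per group), a log2 fold change of 1.19 (SE 0.23, limma adjusted p = 0.00100). Without Saline 2, Saline 7 and Saline 8 the log2 fold change of Ank was 0.76 (SE 0.13, limma adjusted p = 0.000546).

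Enpp1 encodes the ectoenzyme that splits ATP into AMP and pyrophosphate, and lies on chromosome 10 from 24637914 to 24712159 (minus strand, GRCm38). Its saline values ran from 9.44 through a median of 15.3 to 17.8 FPKM, and its Ang II values from 16.7 through 23.1 to 38.0 FPKM. The groups overlapped by a single library of the treated group, since 7 of 8 Ang II libraries exceeded every saline library. The mean rose from 14.2 ± 3.31 to 24.1 ± 6.68 FPKM (SD, n = 8 per group), with a log2 fold change of 0.72 (SE 0.17, limma adjusted p = 0.00348). The highest value was in Ang II 6 and the lowest in Saline 7.

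Of the genes that remove pyrophosphate or free phosphate, Alpl moved the other way. Alpl encodes tissue-nonspecific alkaline phosphatase and lies on chromosome 4 from 137741733 to 137796384 (minus strand, GRCm38). It ran from 10.2 through a median of 16.4 to 23.8 FPKM in the saline libraries and from 3.28 through 4.23 to 11.04 FPKM in the Ang II libraries. Below every saline library lay 7 of the 8 Ang II libraries, and the exception was Ang II 1 at 11.04 FPKM. Alpl rested on 130 to 332 reads per saline library and 41 to 138 per Ang II library. The mean fell from 16.9 ± 4.83 to 5.11 ± 2.50 FPKM (SD, n = 8 per group), a log2 fold change of -1.58 (SE 0.21, limma adjusted p = 2.42e-05). This was the largest log2 difference among the 9 genes after that of Spp1, and it was -1.74 without Ang II 1.

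Phospho1 encodes a phosphatase that frees phosphate inside matrix vesicles, the membrane particles in which mineral starts in bone, and lies on chromosome 11 from 95824499 to 95832140 (plus strand, GRCm38). Its level was low in both groups, from 0.398 through a median of 1.89 to 2.76 FPKM with saline and from 1.11 through 1.76 to 2.90 FPKM with Ang II. The groups overlapped almost whole, and the log2 fold change was 0.17 (SE 0.21, limma adjusted p = 0.529). These values rested on 6 to 54 reads per library. They are uncertain, because 89.6% of the exon bases of Phospho1 overlap those of Zfp652 on the same strand and 84.2% those of Abi3 on the opposite strand.

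Within each library the Alpl level was set against the Enpp1 level, the pair of enzymes with opposite actions on pyrophosphate. The ratio of Alpl to Enpp1 was 0.947 to 1.42 in the saline libraries, with a median of 1.198, and 0.141 to 0.664 in the Ang II libraries, with a median of 0.180. The level of this ratio depends on the mean transcript lengths behind FPKM, 792 bases for Alpl and 3774 for Enpp1. No Ang II library reached the range of the saline libraries. How many other pairs of genes separate in this way was not counted. On the log2 scale the ratio went from 0.24 ± 0.19 to -2.28 ± 0.74 (SD, n = 8 per group), a difference of -2.52 (two-sided exact permutation test, p = 0.000155, the smallest this design can give, and 0.000622 adjusted over 4 ratios). The log2 spread between libraries of this ratio in the saline group, 0.19, was smaller than that of the other 3 ratios. Ank against Enpp1 also differed, from 1.18 to 3.17 with saline and from 2.46 to 4.16 with Ang II, by 0.46 on the log2 scale (exact permutation p = 0.0120, adjusted 0.0239), and here the groups overlapped. The genes of these ratios were picked for their roles with the single-gene results known, so the ratios are no independent support for them.

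**Figure D2:**
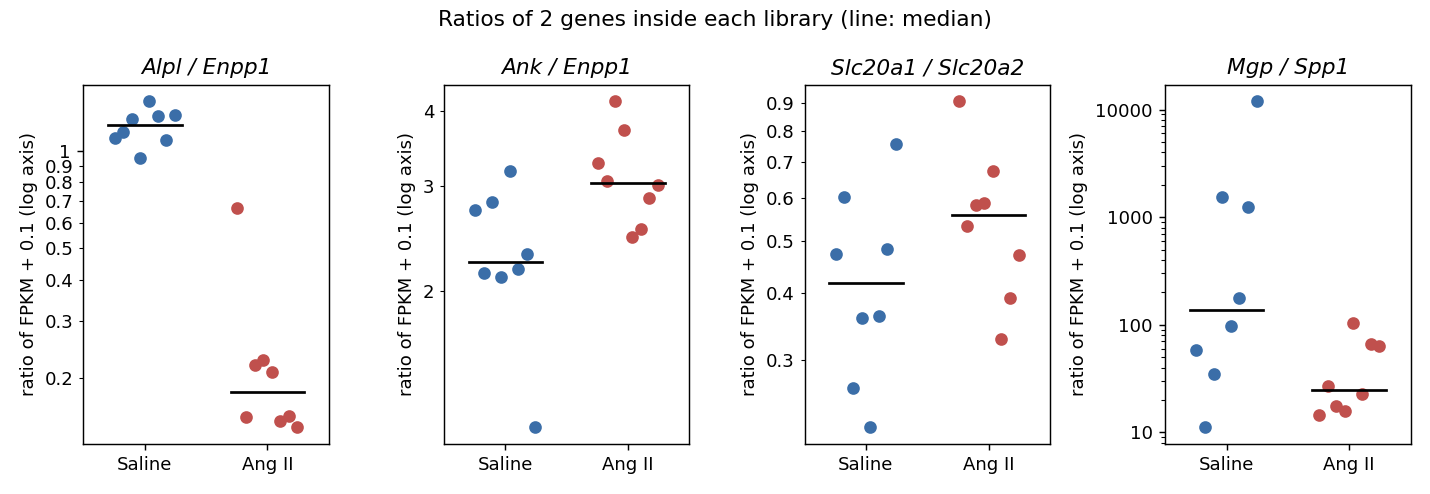
Ratio of FPKM + 0.1 within each library for 4 pairs of genes, on a logarithmic axis, 1 point per library and a line at the group median. The ratio of Alpl to Enpp1 separates the groups, at 0.947 to 1.42 with saline and 0.141 to 0.664 with Ang II, while the ratio of Mgp to Spp1 spans 11.1 to 11950 within the saline group. How many other pairs of genes separate in this way was not counted.

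Of the phosphate transporters, Slc20a2 passed the test and Slc20a1 did not, and the difference between them was not significant (p = 0.167, exact permutation test of their ratio). Slc20a2 encodes PiT-2, a sodium-dependent phosphate importer, and lies on chromosome 8 from 22476788 to 22569612 (plus strand, GRCm38). It ran from 61.1 through a median of 70.8 to 81.6 FPKM with saline and from 34.6 through 47.0 to 58.6 FPKM with Ang II, so that the groups did not overlap and all 8 Ang II libraries were under the lowest saline value. As for Ank, this separation is only a description, and the share of all tested genes that separate was not counted. The mean fell from 70.8 ± 6.56 to 46.0 ± 8.38 FPKM (SD, n = 8 per group), a log2 fold change of -0.63 (SE 0.11, limma adjusted p = 0.000432). After median ratio scaling, which raised the median of all genes to near 0, the log2 fold change of Slc20a2 was -0.49 (limma adjusted p = 0.00223).

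Slc20a1 encodes PiT-1, the related importer, and lies on chromosome 2 from 129198764 to 129211616 (plus strand, GRCm38). It ran from 16.9 through a median of 28.0 to 52.4 FPKM with saline, with the highest value in Saline 8, and from 17.6 through 24.1 to 32.9 FPKM with Ang II. The Ang II range lay wholly inside the saline range, and the log2 fold change was -0.25 (SE 0.20, limma adjusted p = 0.336). Without Saline 2, Saline 7 and Saline 8 it was 0.03 (adjusted p = 0.908). The ratio of Slc20a1 to Slc20a2 was 0.225 to 0.754 with saline and 0.328 to 0.907 with Ang II, a log2 difference of 0.38 that did not pass (exact permutation p = 0.167, adjusted 0.167). A difference in response between both transporters was therefore not shown.

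Of the secreted inhibitors, Mgp was the most abundant of the 9 genes and Spp1 the most variable between libraries. Mgp encodes matrix Gla protein, a calcium-binding protein that needs vitamin K to become active, and lies on chromosome 6 from 136872435 to 136875823 (minus strand, GRCm38). Its mean level of 6493 FPKM over all libraries ranked 9 among the tested genes. It ran from 3460 through a median of 4697 to 7122 FPKM with saline and from 4020 through 5918 to 21462 FPKM with Ang II. The highest value was that of Ang II 6, and 3 of 8 Ang II libraries exceeded every saline library. The log2 fold change was 0.58 (SE 0.28) and did not pass (limma adjusted p = 0.116), and it was 0.35 without Ang II 6 (adjusted p = 0.192).

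Spp1 encodes osteopontin, a phosphorylated glycoprotein that binds crystals and cell-surface integrins and is made by macrophages as well as by altered smooth muscle cells. It lies on chromosome 5 from 104435118 to 104441050 (plus strand, GRCm38). Among the saline libraries it was 455 FPKM in Saline 2, 123 in Saline 1 and 108 in Saline 3, then 45.2 in Saline 5, 27.9 in Saline 6, 4.39 in Saline 7, 2.73 in Saline 4 and 0.19 in Saline 8. Among the Ang II libraries it was 955 FPKM in Ang II 6, between 335 and 368 in Ang II 1 to 4, 126 in Ang II 7, 63.7 in Ang II 8 and 50.0 in Ang II 5. Above every saline library lay 1 Ang II library, and below every Ang II library lay 5 saline libraries. The value of Saline 8 rested on 3 reads.

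The median of Spp1 was 36.6 FPKM in the saline group and 337 FPKM in the Ang II group. The mean went from 95.8 ± 153 to 324 ± 289 FPKM (SD, n = 8 per group), a log2 fold change of 3.11 (SE 1.03, limma adjusted p = 0.0266). On the log2(FPKM + 1) scale the SD of Spp1 between saline libraries was 2.93, rank 1 of the 15007 tested genes, against a median SD of 0.37 over all of them. Between Ang II libraries it was 1.44, rank 28, against a median of 0.24. The call was lost without Saline 7 (2.78, adjusted p = 0.0543) and without Ang II 6 (2.81, adjusted p = 0.0532). A share of 18.8% of the exon bases of Spp1 overlaps the gene model Gm42793 on the same strand, which stood at 0.0137 FPKM with saline and 0.281 with Ang II.

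The ratio of Mgp to Spp1 ran from 11.1 to 11950 with saline and from 14.5 to 104 with Ang II, and the lowest values of both groups were close. Its log2 mean went from 7.87 ± 3.34 to 5.00 ± 1.09 (SD, n = 8 per group), a difference of -2.87 (exact permutation p = 0.0339, adjusted 0.0452 over 4 ratios). Leaving out single libraries took its exact permutation p, not adjusted over the 4 ratios, to between 0.00466 and 0.0628.

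Macrophage markers moved with Spp1 inside both groups. The 16 listed markers summed to 27.7 to 739 FPKM in the saline libraries and 79.5 to 801 FPKM in the Ang II libraries. Of the 15 that were tested, 4 rose (Adgre1, Csf1r, Itgam and Ccr2) and none fell, beside 9.54% of all tested genes called higher. None of the 16 was at 0 in all libraries. Itgam lost its call under 21 of 29 alternatives and Ccr2 under 6 of 29, and both were named after their values were seen. Their saline means, 0.358 and 0.272 FPKM, were under the filter of 0.5 FPKM. Both passed it only through their Ang II libraries, with means of 2.23 and 3.31 FPKM. Of the exon bases of Itgam 68.7% and of those of Csf1r 15.1% are shared with other gene models. The macrophage score, the mean z-score over the 15 tested markers, was lowest in Saline 8 (-1.26) and Saline 7 (-1.15) and highest in Ang II 1 (2.16). Within the saline group log2 Spp1 and this score had Pearson r = 0.776 (exact permutation p = 0.0249, adjusted 0.0499 over 2 relations) and Spearman rho = 0.810 (exact p = 0.0218, adjusted 0.0218). Within the Ang II group r was 0.663 (exact p = 0.0673, adjusted 0.0673) and rho 0.881 (exact p = 0.00724, adjusted 0.0145). Without the 2 libraries farthest from the median score, r was 0.738 with saline and 0.817 with Ang II (n = 6 each). With the score as a covariate the log2 fold change of Spp1 was 1.32 (SE 0.94, limma adjusted p = 0.335). Whether macrophage number carries the difference in Spp1 was not tested.

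**Figure D3:**
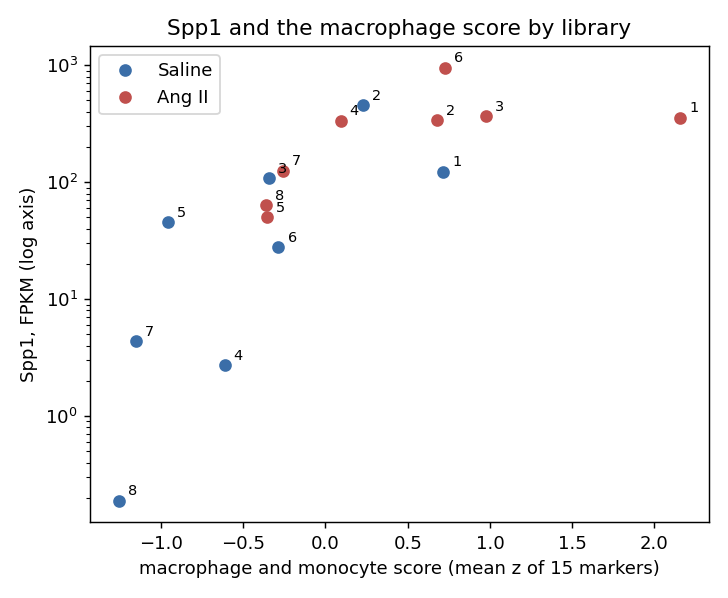
Spp1 in FPKM on a logarithmic axis against the mean z-score of 15 macrophage and monocyte markers, 1 numbered point per library and 1 colour per group. Saline 7 and Saline 8 sit lowest on the score, at -1.15 and -1.26, and Spp1 tends to be higher where the score is higher within each group.

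Runx2 encodes the transcription factor that commits cells to the bone lineage, and lies on chromosome 17 from 44495987 to 44814797 (minus strand, GRCm38). It was the lowest of the 9 genes in level, from 0.112 through a median of 0.523 to 0.743 FPKM with saline and from 0.653 through 1.00 to 1.49 FPKM with Ang II. Above every saline library lay 7 of 8 Ang II libraries. Saline 7 and Saline 8 were lowest at 0.112 and 0.181 FPKM, against 0.459 to 0.743 in the other 6 saline libraries. The mean rose from 0.496 ± 0.241 to 1.07 ± 0.258 FPKM (SD, n = 8 per group), with a log2 fold change of 0.48 (SE 0.12, limma adjusted p = 0.00745). These values rested on 4 to 29 reads per saline library and 23 to 60 per Ang II library. The saline mean was under the filter of 0.5 FPKM, so Runx2 was tested only through its Ang II level. At a filter of 1 FPKM it was not tested. The added constant of 1 FPKM compresses so low a gene: the log2 fold change was 1.09 (SE 0.31, adjusted p = 0.0125) with a constant of 0.1 and 1.26 with voom on recovered reads (adjusted p = 0.0081). With the macrophage score as a covariate Runx2 no longer passed (0.38, adjusted p = 0.0720).

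RUNX proteins bind the core TGTGGT, and Spp1 is a known target of RUNX2, so the promoters of the 4 genes that rose are shown with this core. Spp1 has a second RefSeq window (chr5:104435942-104436241), which held no such core and is not printed. Windows run from 250 bases before to 50 after a RefSeq gene start (RefSeq, GRCm38.p6), 5′ to 3′ on the strand of the gene. Capitals mark the core TGTGGT or its reverse complement ACCACA, and positions count from the start.
Spp1 (chr5:104434861-104435160, plus strand): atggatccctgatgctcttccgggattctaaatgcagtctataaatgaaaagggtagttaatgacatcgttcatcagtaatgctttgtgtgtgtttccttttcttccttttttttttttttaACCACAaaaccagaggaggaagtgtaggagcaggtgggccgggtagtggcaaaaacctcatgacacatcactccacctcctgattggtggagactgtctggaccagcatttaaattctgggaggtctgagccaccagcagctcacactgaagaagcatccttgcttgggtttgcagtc
Runx2 (chr17:44814578-44814877, minus strand): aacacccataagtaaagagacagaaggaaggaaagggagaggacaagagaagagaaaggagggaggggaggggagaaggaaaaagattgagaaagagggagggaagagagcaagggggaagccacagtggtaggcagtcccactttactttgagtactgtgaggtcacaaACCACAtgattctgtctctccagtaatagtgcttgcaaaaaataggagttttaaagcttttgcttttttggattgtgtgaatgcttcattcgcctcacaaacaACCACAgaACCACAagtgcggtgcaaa
Enpp1 (chr10:24712110-24712409, minus strand): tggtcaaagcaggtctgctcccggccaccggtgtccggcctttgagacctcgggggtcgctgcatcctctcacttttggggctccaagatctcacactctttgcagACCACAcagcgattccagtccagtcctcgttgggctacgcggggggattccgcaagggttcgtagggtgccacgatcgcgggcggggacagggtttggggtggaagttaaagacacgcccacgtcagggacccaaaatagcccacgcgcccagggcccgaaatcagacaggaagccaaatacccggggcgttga
Ank (chr15:27466427-27466726, plus strand): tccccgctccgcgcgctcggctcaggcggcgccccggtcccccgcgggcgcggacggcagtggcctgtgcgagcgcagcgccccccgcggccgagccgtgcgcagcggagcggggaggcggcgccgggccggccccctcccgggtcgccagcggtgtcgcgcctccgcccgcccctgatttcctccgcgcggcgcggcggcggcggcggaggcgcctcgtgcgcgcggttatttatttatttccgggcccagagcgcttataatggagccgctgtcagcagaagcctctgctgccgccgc
The core began at -128 in Spp1, at -144 in Enpp1, and at -80, 24 and 32 in Runx2, each time as ACCACA. The Ank window held no such letters. RefSeq windows were found for 7 of the 9 genes (10 windows), and 4 windows of 4 genes held the core, the fourth being Slc20a1, which did not pass the test. Of 32851 mouse windows of 300 bases, 16.8% held it. A match describes letters and not binding. Mgp and Slc20a2 had no window here.

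**Figure D4:**
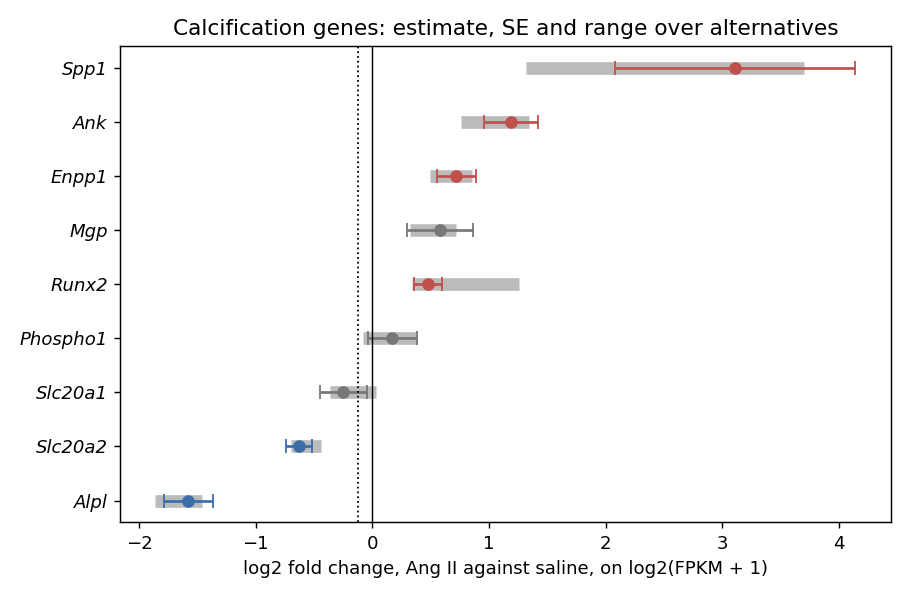
Log2 fold change of the 9 genes, Ang II against saline, on the log2(FPKM + 1) scale, with limma standard errors as thin bars and the range over the alternatives as grey bands. The dotted line marks the median of all tested genes, -0.12. Red genes rose, blue genes fell and grey genes did not pass. Spp1 has the largest value, 3.11, and the widest error, Alpl lies at -1.58 and Slc20a2 at -0.63.

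Libraries differed in the same way for several of the 9 genes. Ang II 6 was the highest Ang II library for Spp1, Mgp, Enpp1, Ank and Slc20a2, 5 of the 9. Saline 7 was the lowest saline library for Alpl, Runx2, Enpp1 and Slc20a2, and Saline 8 for Spp1, Mgp and Ank. In deviations from the group means over 16 libraries, Enpp1 and Ank had r = 0.73 (rho = 0.797), Enpp1 and Slc20a2 r = 0.712, and Ank and Slc20a1 r = -0.845 (rho = -0.729). Mgp and Spp1 had r = 0.422. Saline 8, the lowest saline library for Ank, was also the highest for Slc20a1. All these correlations are descriptions over libraries that differ in depth and include the distinct saline samples.

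By the same measure, the genes outside the 9 that followed Spp1 most closely were Lum (r = 0.906), which encodes the collagen-binding proteoglycan lumican, Lhfpl2 (0.889), Anxa8 (0.871), Tnfrsf11b (0.866), the decoy receptor osteoprotegerin, and Sgpl1 (0.855). Lum is also one of the 10 adventitial fibroblast markers. It ran from 1.26 to 55.3 FPKM in the saline libraries and from 1.64 to 38.1 FPKM in the Ang II libraries. Of the 10 markers 0 rose and 2 fell, beside 24.9% of all tested genes called lower. The part of fibroblasts in the Spp1 result was not tested. Of these 5 genes, Anxa8, Tnfrsf11b and Sgpl1 rose with Ang II. Mgp was followed by Serinc2 (0.893), Foxl1 (0.858), Pkp1 (0.851), St14 (0.845) and Nxph3 (0.84). Alpl was followed by Naaa (0.861), Mest (0.847) and Snx2 (0.84), and Runx2 by Rassf1 (0.907), Tmem164 (0.898), Gm15788 (0.892) and Prkx (0.886).

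In the order of levels in the saline libraries, Mgp stood first and was above each other gene in every library. By mean FPKM Spp1 was next, but its range of 0.19 to 455 FPKM crossed all others. Slc20a2 lay above Ank and Slc20a1, whose ranges overlapped, and then came Alpl and Enpp1, whose ranges also overlapped. Phospho1 and Runx2 were lowest. The order depends on the lengths used for FPKM, which were mean transcript lengths.

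Around these 9 genes, 9 lists of calcification genes held 151 genes, of which 113 were tested, 26 rose and 15 fell, with a median log2 fold change of 0.05 against -0.12 over all tested genes. Over all tested genes 9.54% were called higher and 24.9% lower. Under median ratio scaling 37 of the 113 rose and 10 fell, and under quantile normalization 35 rose and 9 fell, beside the more even split of all genes under these scalings. All adjusted p-values in the description of these lists are from limma over all 15007 genes. Some genes of the lists are said to lie above or below every saline library. The share of all tested genes that do so was not counted.

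In the list of pyrophosphate, ATP and adenosine enzymes, 2 of 15 rose and 4 fell (median log2 fold change -0.11). Entpd2, which degrades ATP outside the cell, fell from 7.90 ± 1.73 to 2.66 ± 1.21 FPKM (log2 fold change -1.31, adjusted p = 4.20e-05), with 28.8% of its exon bases shared with Npdc1. Entpd1, the CD39 enzyme that degrades ATP to AMP, fell from 305 to 203 FPKM (-0.57). Enpp3, a relative of Enpp1, rose from 1.18 to 2.60 FPKM (0.71), and Ada, which removes adenosine, rose by 0.35 on the log2 scale. Ada lost its call under 6 of 29 alternatives, both covariates and both combined removals of saline libraries included, and Entpd1 under quantile normalization and with the macrophage covariate. Nt5e, the CD73 enzyme that turns AMP into adenosine, did not pass (0.30). Abcc6, a transporter needed for ATP release from the liver, was under the filter at 0.446 and 0.227 FPKM. After median ratio scaling 5 of these genes rose and 2 fell.

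Of phosphate handling genes, 1 of 5 rose and 1 fell (median -0.23). Fgfr1, a receptor for fibroblast growth factors, rose by 0.38, a call lost with the adipocyte covariate and without Saline 2, Saline 7 and Saline 8, and Slc25a3, the mitochondrial phosphate carrier, had a log2 fold change of -0.23 and lost its call under 21 of 29 alternatives. The phosphate transporter genes Slc34a1, Slc34a2 and Slc34a3, and Fgf23, Kl and Vdr, were under the filter.

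Of genes for vitamin K use and Gla proteins, 1 of 8 rose and 1 fell (median -0.02). Ggcx, the carboxylase that activates matrix Gla protein, rose from 30.9 ± 1.37 to 37.4 ± 4.24 FPKM (0.26, adjusted p = 0.0202). Gas6, a Gla protein that signals cell survival, fell from 257 ± 29.5 to 123 ± 39.1 FPKM (-1.10, adjusted p = 4.20e-05), below every saline library in all 8 Ang II libraries.

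A further list held genes linked to inhibitors of calcification, not all of them inhibitors themselves. In it 4 of 10 rose and 2 fell (median 0.02). The receptor gene Tnfrsf11a, counted in this list, did not pass (-0.16). Tnfrsf11b, which binds the osteoclast factor RANKL, rose from 7.67 ± 4.82 to 39.2 ± 22.6 FPKM (2.29, SE 0.39, adjusted p = 0.000285), above every saline library in all 8 Ang II libraries. Fbn1, the microfibril protein fibrillin 1, rose from 27.4 to 81.1 FPKM (1.55), and Bgn, the proteoglycan biglycan, from 3146 ± 305 to 6141 ± 1131 FPKM (0.95). Stc2, a stanniocalcin, fell from 7.08 to 2.67 FPKM (-1.06). Ahsg, which encodes the serum inhibitor fetuin-A, stood at 3.91 and 4.93 FPKM and did not pass.

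Among osteochondrogenic transcription factors beside Runx2, 3 of 13 rose and 1 fell (median 0.07). Sox9, the cartilage factor, rose from 1.19 ± 0.603 to 2.89 ± 1.12 FPKM (0.83, adjusted p = 0.00427). Both relatives of Runx2 rose, Runx1 from 0.991 to 2.81 FPKM (0.94) and Runx3 from 0.532 to 1.54 FPKM (0.73). Msx1 had a log2 fold change of -0.37 and lost its call under quantile normalization and median ratio scaling. Sp7, the factor that acts after RUNX2 in bone, and Msx2 were under the filter in both groups, at 0.290 and 0.0972 FPKM and at 0.0813 and 0.0474 FPKM. With the macrophage score as a covariate, 0 of these factors rose.

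In the list of bone and cartilage matrix genes, 5 of 13 rose and 3 fell (median 0.38). Acan, the cartilage proteoglycan aggrecan, rose from 6.52 ± 2.36 to 46.2 ± 15.4 FPKM (2.64, adjusted p = 2.89e-07). Col1a1, the chain of type I collagen that bone and other connective tissue share, rose from 432 to 1895 FPKM (2.11), and Sparc, or osteonectin, from 2399 ± 868 to 8295 ± 1296 FPKM (1.84). Cytl1, a cartilage cytokine, fell from 723 ± 293 to 240.4 ± 108 FPKM (-1.61), and the small proteoglycans Ogn and Omd fell by 1.40 and 1.08 on the log2 scale. The mineral matrix genes Dmp1 and Dspp were under the filter, and Mepe was listed at 0. Matn1, Matn3 and the collagen genes Col9a1, Col10a1 and Col11a1 were also under the filter and not tested. These collagen genes stood at 0.258, 0.079 and 0.0252 FPKM with saline and 0.471, 0.572 and 0.118 FPKM with Ang II.

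For BMP signalling, the pathway that induces Runx2 in bone, 0 of 22 rose and 1 fell (median -0.02). At an unadjusted p under 0.05 the limma counts were 0 higher and 3 lower, voom and the Wilcoxon test called 0 higher, and median ratio scaling and quantile normalization each called 1 higher. Acvrl1, an endothelial receptor of the family, fell from 92.1 ± 31.6 to 41.6 ± 7.19 FPKM (-1.09, adjusted p = 0.000129), below every saline library in all 8 Ang II libraries. Of 10 endothelial markers 0 rose and 2 fell, Cldn5 and Pecam1, beside 24.9% of all tested genes called lower. The list median was -0.07. Cdh5 and Emcn, which did not pass, had log2 fold changes of 0.54 and 0.65, and Pecam1 lost its call under 12 of 29 alternatives, both other scalings included. The part of endothelial cells in the Acvrl1 result was not tested. Bmp2 stood at 2.45 and 2.11 FPKM and Bmp4 at 82.8 and 108 FPKM, and neither passed.

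In the list of osteopontin receptors and proteases, 5 of 14 rose and 1 fell (median 0.47). Cd44, a receptor of osteopontin and hyaluronan, rose from 12.4 ± 3.43 to 36.4 ± 11.3 FPKM (1.48, adjusted p = 9.35e-05), above every saline library in all 8 Ang II libraries. Plau, the protease urokinase, rose from 2.39 to 15.03 FPKM (2.32), and the integrin subunit gene Itga5 from 270.2 to 449 FPKM (0.85). Itgb8 fell from 1.67 to 0.503 FPKM (-0.74). Itgb3, a subunit of the best known integrin receptor of osteopontin, stood at 31.8 and 28.0 FPKM and did not pass.

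Of matrix vesicle genes, 5 of 13 rose and 1 fell (median 0.22). Anxa2 and Anxa1, calcium-binding annexins, rose from 252 to 479 FPKM (0.91) and from 325 to 595 FPKM (0.96), and Smpd3, a sphingomyelinase of vesicle release, from 3.39 to 8.67 FPKM (1.25). Anxa6 had a log2 fold change of -0.37 and lost its call under quantile normalization and median ratio scaling.

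**Figure D5:**
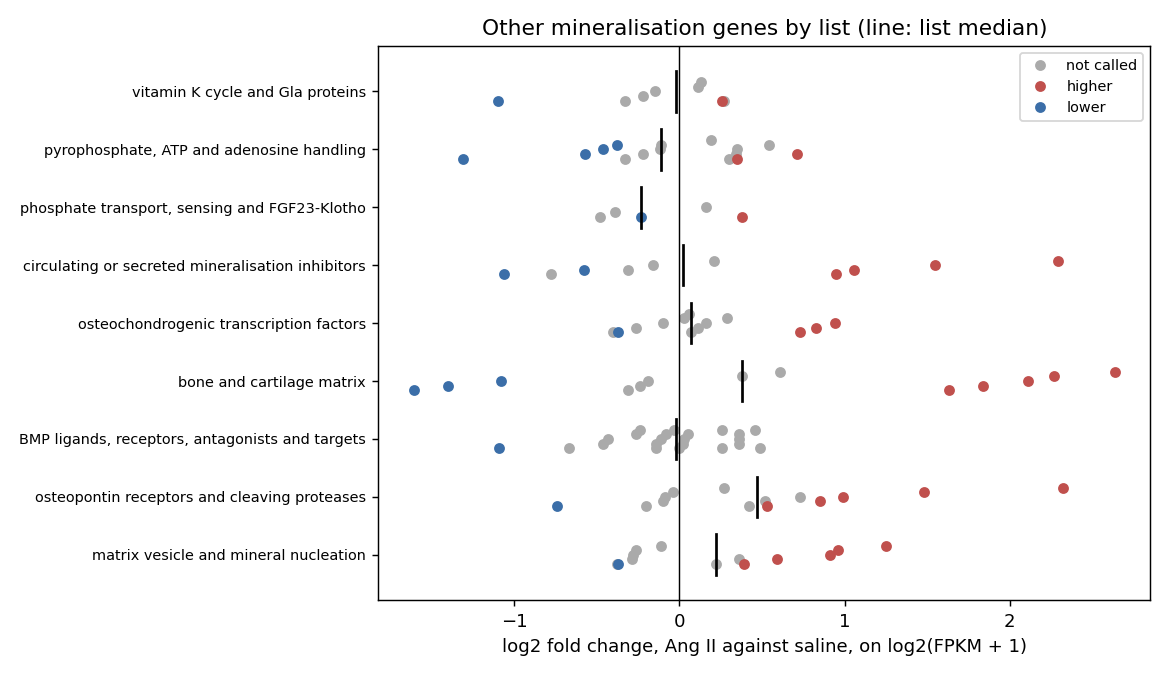
Log2 fold change of every tested gene in the 9 lists of calcification genes, Ang II against saline, 1 point per gene, with genes that rose in red, genes that fell in blue, the others in grey and a line at the list median. The medians run from -0.23 for phosphate handling to 0.47 for osteopontin receptors and proteases, and in most lists most genes did not pass.

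Markers of other cell types were counted in the same way. Of foam and osteoclast-like macrophage markers 1 of the 8 tested rose (Ctsk). All 11 listed summed to 159 to 664 FPKM with saline and 365 to 651 with Ang II. The largest part of that sum was Cd9, at a mean of 330 FPKM with saline and 411 with Ang II, which is also in the matrix vesicle list. The sum is therefore no measure of foam cells. Endothelial markers summed to 480 to 1488 FPKM with saline and 161 to 1319 with Ang II. Of smooth muscle contractile markers 6 of 10 fell, among them Myh11, and they summed to 11180 to 18680 FPKM with saline and 7343 to 12160 with Ang II. Of adipocyte markers 3 of 10 fell, of fibroblast markers 2 of 10 and of Schwann cell markers 2 of 4. Of neutrophil markers 1 of 3 rose (S100a9). Over all tested genes 24.9% were called lower and 9.54% higher as deposited, shares that depended on scaling. The adipocyte and fibroblast counts are therefore near the share of all genes called lower. None of 4 lymphocyte markers and none of 3 skeletal muscle markers passed. Their part in the results on the 9 genes was not tested beyond the covariates given.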

How the data were processed

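The authors deposited one table of FPKM per gene for 16 mouse aorta libraries, made with a SMARTER mRNA-Seq kit from Trizol RNA, per the labels' protocols. Per the submitters' processing notes the genome was GRCm38 (mm10), with the aligner, the counter and any use of strand not given in the sources used here. Titles gave the groups. Reads were recovered from FPKM with mean transcript lengths (GENCODE M21), and 95.82% to 96.29% of values per library were whole within 0.02 of a read. They gave depths, and precision is limited by counting for the lowest genes.

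Genes averaging 0.5 FPKM or more were tested with limma 3.58.1 (R 4.3.3, intensity trend) on log2(FPKM + 1), 8 against 8 libraries, two-sided, with Benjamini-Hochberg adjustment. Ratios within libraries (FPKM + 0.1) and correlations had exact permutation tests in Python 3.11.15 with scipy 1.17.1. The fit was tested on simulated data. Alternatives were another pseudocount, other filters, scalings, weights, a replicate block, marker covariates, voom, the Wilcoxon test and leaving out libraries. The combined removal of Saline 7 and Saline 8, with or without Saline 2, was chosen after seeing the data. The 9 genes and the lists were chosen with earlier results of these data known. Text names the 9 genes and, per list, up to 3 genes per direction with at least 1 FPKM and the smallest adjusted p, plus some genes chosen for their role. The collagen genes under the filter were named after their values were seen. The cell marker lists follow the same rule with up to 2 per direction, apart from Itgam and Ccr2, and from Cdh5 and Emcn, which were named after their values were seen.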

Additional observations from a re-analysis of the deposited data

Results flagged for a closer look

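In 26 groups of 8 libraries (the 9 genes and 4 ratios in each group), 3 held a highest or lowest library whose gap to the next, as a share of the range of the group, was above Dixon's critical value for 8 samples. Gaps and ranges were taken on log2(FPKM + 1) for genes and on log2 ratios for pairs. On the FPKM scale the gaps, and the groups flagged, would differ. Chance gives about 1 such group in 20. Alpl in Ang II 1 was 11.04 FPKM, the highest of its group, with a gap of 0.593 of the range. The ratio of Alpl to Enpp1 in Ang II 1 was 0.664, the highest of its group, with a gap of 0.694. It shares its Alpl value with the first. The ratio of Ank to Enpp1 in Saline 8 was 1.18, the lowest of its group, with a gap of 0.586. Ang II 1 also had the highest macrophage marker score (2.16) and Saline 8 the lowest (-1.26). The adipocyte score, the mean z-score over the tested adipocyte markers, was highest in Saline 8 (1.715). Saline 6 (1.229) and Saline 2 (1.173) came next, and Ang II 1 stood at 0.047. Whether these scores have a part in the positions of Ang II 1 and Saline 8 was not tested.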

How the results depend on the processing

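Over 29 alternatives the log2 fold changes of Alpl (-1.86 to -1.46), Enpp1 (0.49 to 0.85), Ank (0.76 to 1.34) and Slc20a2 (-0.70 to -0.44) kept their direction and call, and Mgp (0.32 to 0.72, adjusted p 0.0554 to 0.408) never passed. Spp1 lost its call without a filter (3.11), by the Wilcoxon test (3.11), with the macrophage score (1.32) or adipocyte score (2.80) as a covariate, and without Saline 7 and Saline 8 (1.99); leaving out 1 library gave 2.47 to 3.70. Runx2 lost its call with the macrophage (0.38) and adipocyte (0.40) covariates. At a filter of 1 FPKM Runx2 was not tested. Slc20a1, which never passed, was 0.03 with the adipocyte covariate and 0.03 without Saline 2, Saline 7 and Saline 8, and Phospho1 was -0.08 with the adipocyte covariate. With each covariate 2 of the 9 genes rose, and 2 fell under all 29. Of the other calcification genes, 15 lower calls became 9 under quantile normalization, 29 with library weights, 9 with the macrophage covariate, 23 without Saline 7 and Saline 8, and 27 without Saline 2 as well. The log2 ratio of Mgp to Spp1 was -3.5 to -2.06 when single libraries were left out, and 8 of 16 removals lost its call. The cause was not tested. The labels do not state that replicate numbers pair the libraries. Same-number correlations ran from -0.246 to 0.385, which does not settle whether they do. With the replicate block 4 of the 9 genes rose and 2 fell, and the log2 fold change of Spp1 was 3.11 (adjusted p = 0.0117); 2 of 8 numbers matched best with their own. Depth limits Runx2 and Phospho1, with at most 60 reads per library.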
